A study of Mus musculus with 4 samples.

Results

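The receptor tyrosine kinases outside the Eph family were examined through the open chromatin assigned to their genes. The table of peaks was searched for 39 receptor genes by symbol, and every peak carrying one of these symbols was kept. This gave 231 of 80881 peaks, at 38 of the 39 genes, and Ntrk2, a neurotrophin receptor, had none. The authors' assignment of a peak to a gene was used throughout, and many assigned peaks lie far from the gene.

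ATAC-seq reads open chromatin by letting a transposase insert sequencing adapters where nucleosomes do not shield the DNA. The cells, called KPC in the labels, came from a lung adenocarcinoma line of the KP mouse to which Cas9 had been added with a lentivirus under puromycin selection. Both groups also carried the lentiviral SAM-Hygro vector for CRISPR activation, with a dRNA against Malat1 (mA2 dRNA) or against luciferase (Con dRNA), and each group had 2 replicate cell samples, 4 libraries in all. All cells derive from 1 cell line, and the labels give no time point or dose.

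Receptor tyrosine kinases span the plasma membrane and carry a kinase on the inner side. A ligand outside the cell brings receptors together, the kinases phosphorylate each other, and adaptor proteins that bind the phosphorylated tail pass the signal to the Ras-MAP kinase and PI3-kinase pathways. Phosphatases, ubiquitin ligases and GTPase-activating proteins dampen the signal. In lung adenocarcinoma several of these receptors, such as EGFR, ERBB2, MET, ALK, ROS1 and RET, are known as oncogenic drivers or drug targets.

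Sequences just upstream of the start sites of 4 receptors are shown because they contrast genes with and without a promoter peak. Egfr and Erbb2 had a peak over the promoter, whereas Kit and Ror2, at which called peaks were lower, had none. They were taken from RefSeq on GRCm38.p6, the same assembly as the mm10 coordinates of the peaks, and are written 5′ to 3′ on the strand of the gene. Capitals mark matches on either strand to the GC box (GGGCGG), the ETS core (CCGGAA) or the AP-1 site (TGANTCA). The 30 bases at Ddr1 lie inside its called peak and were cut around an AP-1 match, which their capitals mark.
Egfr, chr11:16751953-16752202, plus strand: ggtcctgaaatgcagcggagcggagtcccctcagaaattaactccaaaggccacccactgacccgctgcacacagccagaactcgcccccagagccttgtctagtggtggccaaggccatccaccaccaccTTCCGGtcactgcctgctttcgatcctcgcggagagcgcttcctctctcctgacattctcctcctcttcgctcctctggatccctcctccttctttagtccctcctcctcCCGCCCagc
Erbb2, chr11:98412234-98412469, plus strand: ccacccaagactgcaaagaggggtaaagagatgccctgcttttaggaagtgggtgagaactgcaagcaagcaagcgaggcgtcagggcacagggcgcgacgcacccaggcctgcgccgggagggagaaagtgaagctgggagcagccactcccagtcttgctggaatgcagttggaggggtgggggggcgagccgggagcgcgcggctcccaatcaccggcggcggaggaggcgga
Kit, chr5:75574737-75574915, plus strand: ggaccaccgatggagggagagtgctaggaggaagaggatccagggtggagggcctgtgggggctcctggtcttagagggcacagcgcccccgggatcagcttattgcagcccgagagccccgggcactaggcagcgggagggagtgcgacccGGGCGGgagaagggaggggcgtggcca
Ror2, chr13:53286125-53286374, minus strand: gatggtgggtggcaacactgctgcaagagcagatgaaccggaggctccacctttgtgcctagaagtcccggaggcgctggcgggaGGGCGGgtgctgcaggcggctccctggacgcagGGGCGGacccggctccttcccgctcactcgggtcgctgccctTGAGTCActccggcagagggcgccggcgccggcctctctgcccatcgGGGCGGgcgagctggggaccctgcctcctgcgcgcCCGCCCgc
Ddr1, chr17:35702177-35702206, minus strand: actgggcagtgTGAGTCAcgggcgtgaggg

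These stretches were rich in G and C, with 60.8% in Egfr, 65.7% in Erbb2, 69.3% in Kit and 73.2% in Ror2. The Erbb2 stretch held none of the 7 motifs searched, although its promoter peak was the highest among the receptors with the luciferase guide. The Ror2 stretch held 4 GC boxes and 1 AP-1 match without a peak over it. A match is a run of letters and not a shown binding site.

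Across the receptors, a few peaks far from the start site opened at Erbb4, Alk, Egfr and Flt1 and a nearer one at Ddr1, while peaks at Kit and Ror2 were lower. The threshold for a call was an adjusted p of 0.05 as given by the authors. By this rule 12 of 231 receptor peaks were called, 5.19%, against a background of 2.73% of all peaks. Of these, 8 were higher with the Malat1 guide, at 5 genes, where 2.23% of all peaks were higher, and 4 were lower, at 2 genes, where 0.507% of all peaks were lower. At 7 of 38 receptor genes (18.4%) at least 1 peak was called, against 8.58% of all genes, and the receptor genes held 6.08 peaks per gene against 4.31.

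The count rested on a few genes. Without Kit, 9 of 227 receptor peaks were called (3.96% against 2.73% of all peaks), 8 higher and 1 lower. All but 1 of the lower calls were thus at Kit. Without Egfr, 9 of 213 were called (4.23%), 5 higher and 4 lower. With each difference centred on the median of its 10 Mb stretch of chromosome, the receptor calls became 5 higher and 5 lower, where all peaks gave 1068 and 444. With all differences centred on the median of all peaks, the 1801 higher and 410 lower calls of the whole table became 1307 and 590.

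Differences are given as the log2 of the authors' mean normalized reads with the Malat1 guide minus that with the luciferase guide, and folds are the ratio of the same means. The table's columns for single libraries carry names that match no sample label and were not used, so no spread between replicates can be given and the authors' adjusted p is the only measure of error. A lower mean from fewer cells with an open site cannot be told apart from less opening in every cell. The median difference was 0.22 over receptor peaks and 0.09 over all peaks, and 72.3% of receptor peaks (167 of 231) had their higher mean in the Malat1 group, against 60.8% of all peaks. At an unadjusted p under 0.05, 39 receptor peaks passed, 30 higher and 9 lower, which is 16.9% against 11.7% of all peaks.

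The receptor peaks resembled the whole table in level. The median receptor peak held 60.1 mean normalized reads with the luciferase guide and 71.0 with the Malat1 guide, and the median of all peaks was 69.2 and 76.3. The sum of means over all peaks was 1.07 times as high with the Malat1 guide. Of the 13 peaks assigned to Malat1 itself, 12 had their higher mean in the Malat1 group, and 1 was called, 9.41 kb from the start site, at 684 against 991 reads (adjusted p = 0.0279 in the authors' deposited table). Accessibility does not measure Malat1 RNA, so these peaks give no direct check of the activation.

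**Figure D1:**
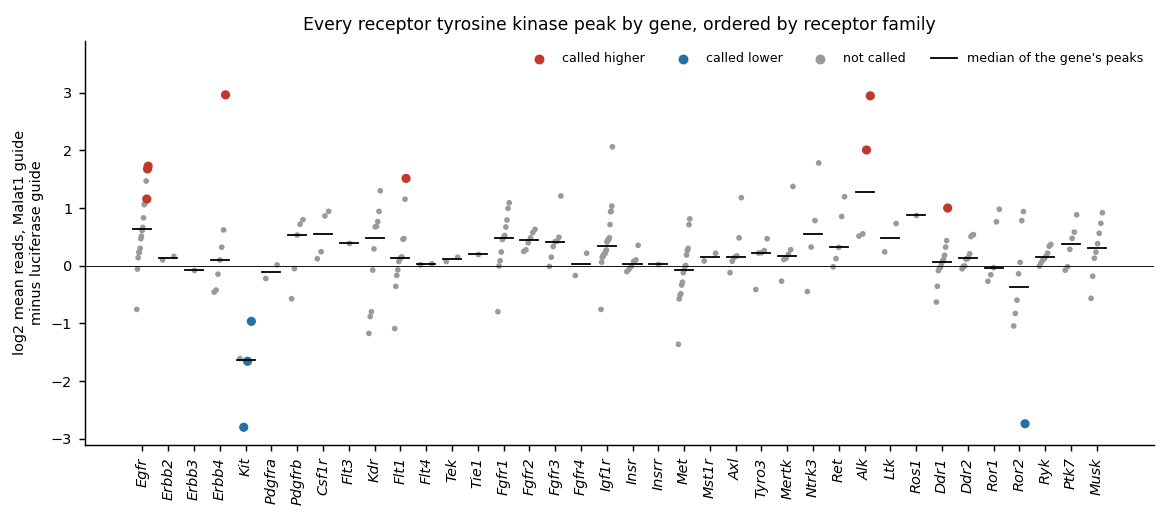
Difference of the log2 mean reads (Malat1 guide minus luciferase guide, vertical axis) for each of the 231 receptor peaks, by gene and grouped by receptor family. Red and blue points are peaks called higher and lower by the authors' adjusted p, grey points were not called, and black bars are gene medians. The gene medians of Alk, at 1.28, and Kit, at -1.63, lie furthest from 0, while Erbb4 and Ror2 have 1 called peak each.

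Kit, the receptor for stem cell factor, held 3 of the 4 lower calls. All 4 of its peaks had lower means with the Malat1 guide, and 3 were called. A distal peak at chr5:75416872-75417272, 158 kb upstream of the start site, went from 79.3 to 11.4 reads, 6.96-fold lower (adjusted p = 3.22e-05 in the authors' deposited table). The strongest, at chr5:75544835-75545235 and 29.7 kb upstream, went from 538 to 276 reads, 1.95-fold lower (adjusted p = 0.000190 in the authors' deposited table). A peak in intron 7 of 20, at chr5:75633248-75633648, went from 324 to 103 reads, 3.15-fold lower (adjusted p = 0.00110 in the authors' deposited table). Thus both the strongest and the weakest Kit peak were called lower, and the strongest still held 276 reads with the Malat1 guide. The remaining peak, of exon class and 48.1 kb downstream, had 113 and 36.9 reads and was not called (adjusted p = 0.0646 in the authors' deposited table). After centring on the median of all peaks it was called lower as well, at an adjusted p of 0.0480 in that recomputation. Centring along mean abundance or by 10 Mb window gave 0.0491 and 0.0489, while centring by chromosome gave no call. No promoter peak was assigned to Kit.

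The lower means ran past Kit. This stretch was noticed after the values were seen and is given as a description. Between Pdgfra and Kdr, which flank Kit on chromosome 5, the table held 17 peaks. Of these, 10 consecutive peaks over 707 kb, from 75156117 to 75862967, had lower means, 4 assigned to Kit, 4 to Kdr, 1 to Pdgfra and 1 to a microRNA gene. Only the 3 Kit peaks among them were called, and the 10 means summed to 2074 reads with the luciferase guide and 1124 with the Malat1 guide. Peaks entered the run by having lower means, so the lower sum follows from that choice. The outermost peaks differed little, with 397 and 341 reads at Pdgfra and 46.4 and 44.1 at Kdr (adjusted p = 0.848 and 0.996 in the authors' deposited table). The 6 following peaks, towards and past the Kdr promoter, all had higher means, and none was called.

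The strongest Kdr-assigned peak of the lower run had 429 and 233 reads (adjusted p = 0.128 in the authors' deposited table). It lies 170 kb past the end of Kit in RefSeq and 106 kb from the end of Kdr, the main receptor for VEGF-A, so it lies outside both genes. The other Kdr peaks of the run had 51.9 and 29.9, 71.0 and 31.5, and 46.4 and 44.1 reads. Kdr therefore held values on both sides of 0, since its promoter peak had 32.0 and 54.4 reads and a peak 11.8 kb upstream had 121 and 233.

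**Figure D2:**
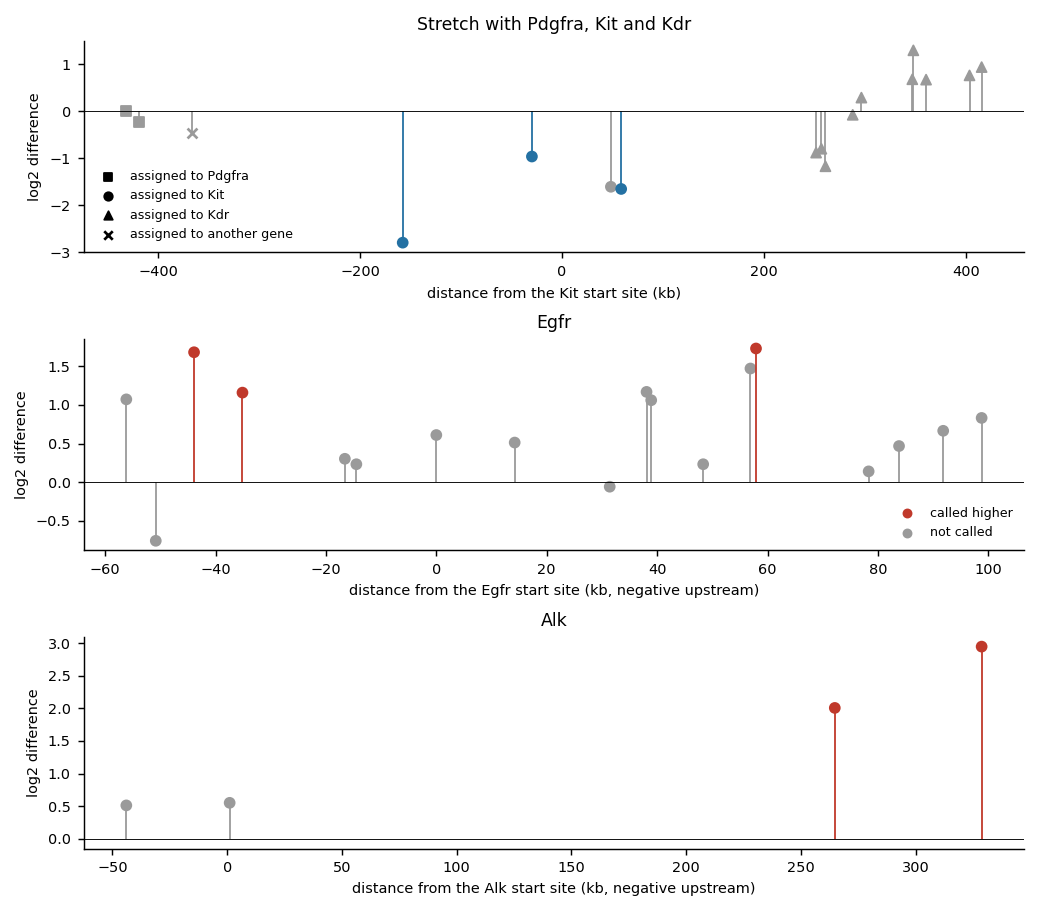
Difference of the log2 mean reads (vertical axis) for each peak along the stretch with Pdgfra, Kit and Kdr, along Egfr and along Alk, against the distance in kb from the start site of Kit, Egfr or Alk (horizontal axis). Blue and red mark peaks called lower and higher, grey those not called. The run of 10 lower means around Kit gives way to 6 higher means near Kdr, while 16 of 18 Egfr peaks and all 4 Alk peaks lie above 0.

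The other receptors of the PDGF and CSF1 group had no calls. None of the 12 peaks at Pdgfra, Pdgfrb, Csf1r and Flt3 was called, and 0 passed an unadjusted p of 0.05. Pdgfra, the receptor for PDGF-A and PDGF-C, had 397 and 341 reads at its stronger peak, of 5' UTR class. Pdgfrb, which marks pericytes and fibroblasts, had a promoter peak of 69.3 and 121 reads. Csf1r, the macrophage receptor for CSF1 and IL-34, had 4 peaks with higher means, of which the leading one had 35.03 and 63.8 reads (adjusted p = 0.620 in the authors' deposited table).

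Egfr, the receptor for EGF and TGF-alpha, carried the most calls among genes with higher peaks. Of its 18 peaks, 16 had higher means with the Malat1 guide, 7 passed an unadjusted p of 0.05 and 3 were called, and the median difference was 0.64. The peak at chr11:16716685-16717085, 35.1 kb upstream, went from 150 to 334 reads, 2.23-fold higher (adjusted p = 0.00492 in the authors' deposited table). A peak in intron 1 of 15, at chr11:16810116-16810516, went from 19.7 to 65.4 reads, 3.31-fold higher (adjusted p = 0.0215 in the authors' deposited table). The peak at chr11:16707914-16708314, 43.9 kb upstream, went from 15.9 to 51.0 reads, 3.20-fold higher (adjusted p = 0.0421 in the authors' deposited table). The called peaks thus lay on both sides of the start site and started from low to middling levels. The Egfr promoter peak had 294 and 449 reads and was not called (adjusted p = 0.165 in the authors' deposited table).

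Higher means were also common around Egfr. The 10 Mb stretch that holds it had 135 peaks with a median difference of 0.30, and of 0.25 without the peaks of Egfr, against 0.09 over all peaks. After centring on that stretch none of the 3 Egfr calls remained, with adjusted p of 0.0969, 0.114 and 0.177. The part of this wider stretch in the Egfr values was not tested otherwise. The corresponding medians were 0.12 for Kit, 0.22 for Ror2, 0.11 for Alk, 0.09 for Erbb4, 0.02 for Flt1 and -0.01 for Ddr1, and the calls at these genes held after the same centring.

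Erbb4, a receptor for neuregulins, had the largest difference among the receptor peaks. A distal peak at chr1:69227821-69228221, 120 kb upstream, went from 9.42 to 73.4 reads, 7.79-fold higher (adjusted p = 1.41e-05 in the authors' deposited table). It stood alone, since the other 6 Erbb4 peaks had differences in both directions and adjusted p of at least 0.763 in the authors' deposited table. Erbb2, the co-receptor that binds no ligand of its own, had a promoter peak of 487 and 544 reads. Erbb3, whose kinase is weak, had only a promoter peak, with 160 and 152 reads. Neither was called, so the 4 ErbB calls among 28 peaks came from Egfr and Erbb4.

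Alk, which binds the ALKAL ligands and is activated by gene fusions in a subset of lung adenocarcinomas, opened inside the gene. All 4 Alk peaks had higher means, and 2 in intron 3 of 28 were called. The peak at chr17:72275478-72275878, 329 kb from the start site, went from 12.9 to 99.4 reads, 7.70-fold higher (adjusted p = 5.56e-05 in the authors' deposited table). The peak at chr17:72339464-72339864, 265 kb from the start site, went from 15.5 to 62.2 reads, 4.02-fold higher (adjusted p = 0.00447 in the authors' deposited table). Both were weak with the luciferase guide. The peak nearest the Alk start site, of exon class and 1.07 kb away, had 21.7 and 31.8 reads and was not called.

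The related receptors had no calls. Ret, the receptor for GDNF family ligands, had 25.6 and 58.6 reads at a promoter peak (adjusted p = 0.234 in the authors' deposited table). Ntrk3, the receptor for neurotrophin-3, had 10.0 and 34.4 reads at a peak 42.7 kb upstream (adjusted p = 0.150 in the authors' deposited table). Ltk had 36.9 and 61.2 reads at its leading peak, and Ros1, another fusion partner in lung cancer, had 23.4 and 43.0 at its only peak. Over Alk and these 4 genes, 14 of 16 peaks had higher means, with a median difference of 0.64.

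Flt1, the VEGF receptor that also binds placental growth factor, opened at 1 of 12 peaks. The peak in exon 19 of 30, at chr5:147589856-147590256 and 136 kb from the start site, went from 38.3 to 110 reads, 2.86-fold higher (adjusted p = 0.00878 in the authors' deposited table). Its promoter peak had 36.3 and 80.8 reads (adjusted p = 0.145 in the authors' deposited table). Flt4, the receptor of lymphatic endothelium, had 16.4 and 16.8 reads at its promoter, the lowest promoter value of the receptors. Tek and Tie1, the angiopoietin receptors, had 3 peaks between them, none called.

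These VEGF and Tie receptors are normally endothelial. Of 8 endothelial markers 7 had a peak and 2, Cldn5 and Erg, a promoter peak. Their 40 peaks summed to 4059 reads with the luciferase guide and 5214 with the Malat1 guide, and 5 were called higher (12.5% against 2.23% of all peaks), all at Cdh5. Pecam1, Cdh5 and Vwf had no promoter peak and Emcn had no peak. The part of endothelial cells in the VEGF receptor values was not tested.

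Ddr1, a receptor for collagen that is common in epithelia, had the called peak nearest to a start site. At chr17:35702049-35702449, of 5' UTR class and 2.17 kb from the assigned start, the reads went from 111 to 222, 2.00-fold higher (adjusted p = 0.0138 in the authors' deposited table). Another start site of Ddr1 in RefSeq lies at 35702044, and the AP-1 letters TGAGTCA printed above, at 35702189-35702195, lie inside the peak and 145 to 151 bases upstream of that start. The strongest Ddr1 peaks were not called, with 813 and 834 reads 6.33 kb from the start site and 791 and 769 reads 4.39 kb from it. Ddr2, the collagen receptor of mesenchymal cells, had 258 and 374 reads at its leading peak and no call among 10 peaks.

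Ror2, a receptor for Wnt5a, had the weakest peak among those called lower. The peak in intron 1 of 8, at chr13:53212867-53213267, went from 26.7 to 4.004 reads, 6.67-fold lower (adjusted p = 0.0315 in the authors' deposited table). A stronger intron peak at 36.7 kb had 236 and 156 reads (adjusted p = 0.332 in the authors' deposited table), and 5 of 8 Ror2 peaks had lower means. Ror1 had lower means at 3 of 5 peaks, among them a promoter peak of 157 and 131 reads, with no call. The pseudokinases Ryk and Ptk7 and the muscle receptor Musk had no call among 22 peaks, and their leading peaks had 79.8 and 103, 59.0 and 109, and 76.1 and 144 reads.

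**Figure D3:**
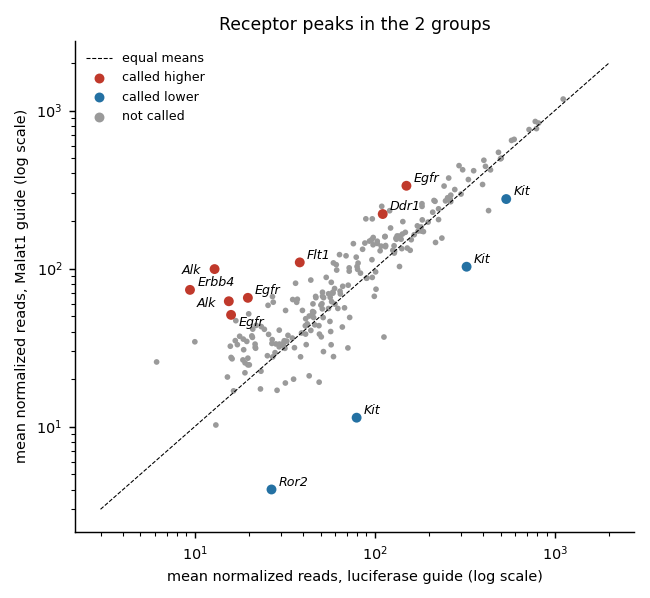
Mean normalized reads with the luciferase guide (horizontal, log scale) and with the Malat1 guide (vertical, log scale) for the 231 receptor peaks, with called peaks coloured and named and a dashed line at equal means. The higher calls start from 9.42 to 150 reads, the lower calls from 26.7 to 538.

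The FGF, insulin, HGF and TAM receptor families had 87 peaks and no call, where 2.73% of all peaks were called. An unadjusted p of 0.05 was passed by 5, 2, 1 and 2 of their peaks. These are 19.2%, 7.41%, 5.88% and 11.8% of each family's peaks, against 11.7% of all peaks. Fgfr1, Fgfr2 and Fgfr3, receptors for fibroblast growth factors, had higher means at 21 of 24 peaks, and the family's median difference was 0.42. The 6 Fgfr2-assigned peaks lie from 133032563 to 133123535 on chromosome 7, outside Fgfr2 in RefSeq, which ends at 130266808. The nearest to a call was an Fgfr3 peak 26.3 kb upstream, with 89.3 and 207 reads (adjusted p = 0.0778 in the authors' deposited table). The leading Fgfr1 peak, of exon class and 72.9 kb upstream, had 96.9 and 207 reads (adjusted p = 0.183 in the authors' deposited table). The highest of all receptor peaks was also assigned to Fgfr1, 47.7 kb upstream, with 1114 and 1183 reads.

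Igf1r, the receptor for insulin-like growth factors, had higher means at 19 of 20 peaks, with a median difference of 0.34. Its leading peak was weak, with 6.15 and 25.7 reads (adjusted p = 0.102 in the authors' deposited table). Insr, the insulin receptor, was balanced, with higher means at 3 of 6 peaks and 439 and 422 reads at its promoter. Met, the receptor for hepatocyte growth factor, had the higher mean at 6 of 15 peaks, and a peak 60.4 kb upstream had 49.1 and 19.1 reads (adjusted p = 0.233 in the authors' deposited table). Its promoter peak had 404 and 485 reads, and Mst1r, the receptor for MSP, had 42.2 and 44.7.

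Axl, Tyro3 and Mertk bind Gas6 and protein S and act in the clearance of dying cells. An Axl-assigned peak of 3' UTR class, 13.4 kb upstream of Axl so that the class refers to another transcript, had 109 and 248 reads and was the closest of all receptor peaks to the threshold from outside (adjusted p = 0.0625 in the authors' deposited table). The leading Mertk peak had 19.96 and 51.7 reads and that of Tyro3 137 and 103. The last peak inside the threshold was the Egfr peak with 15.9 and 51.0 reads.

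The authors' promoter class holds peaks within 1 kb of the start site they assigned. The receptors had 31 such peaks at 24 genes, and none was called, where 1.42% of all promoter peaks were. The called Ddr1 peak, of 5' UTR class, is not among them although it lies beside another RefSeq start site. Their differences ran from -0.27 at Ror1 to 1.197 at Ret, 27 of 31 means (87.1%) were higher with the Malat1 guide against 63.9% over all promoter peaks, and the lowest adjusted p was 0.145 in the authors' deposited table, at Flt1. At an unadjusted p under 0.05, 4 passed (12.9% against 7.18% of all promoter peaks), at Ret, Flt1, Egfr and Fgfr3, the last with 183 and 257 reads. The median promoter peak of the receptors held 79.8 reads with the luciferase guide, and that of all promoter peaks 265. Erbb2, Insr, Mertk and Met had over 400 reads in both groups, while Flt4, Ret and Flt3 had under 30 with the luciferase guide. The Fgfr2 promoter peak, with 131 and 156 reads, lies outside Fgfr2 in RefSeq. The remaining 14 genes with peaks, among them Kit, Alk, Erbb4, Ror2, Pdgfra and Fgfr1, had no peak of the authors' promoter class. At Fgfr1, however, a peak of 5' UTR class with 308 and 422 reads spans the RefSeq start at 25518759. It was not called (adjusted p = 0.279 in the authors' deposited table) but passed an unadjusted p of 0.05, outside the 4 above. At Ltk, a peak of 5' UTR class with 36.9 and 61.2 reads overlaps the bases around a RefSeq start site.

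**Figure D4:**
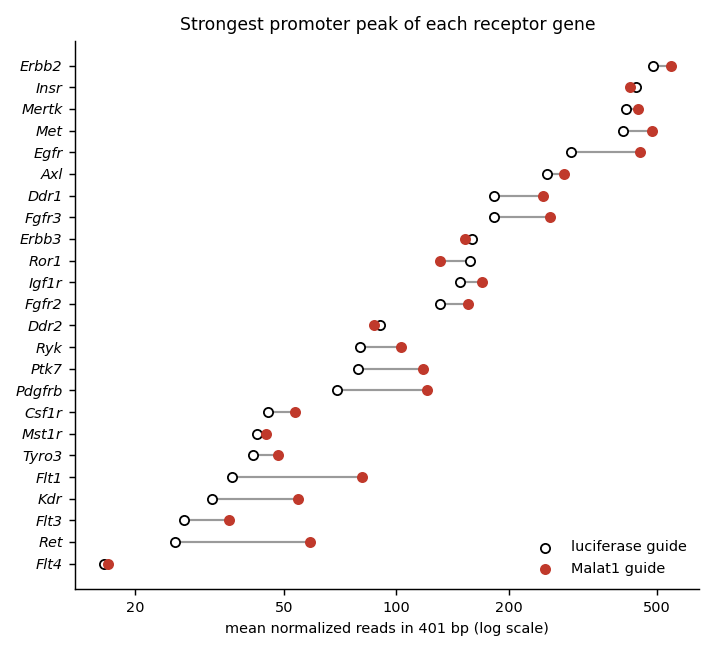
Mean normalized reads (log scale) at the strongest promoter peak of each of the 24 receptor genes that had one, with the luciferase guide (open) and the Malat1 guide (filled). The pairs run from 16.4 reads at Flt4 to 487 at Erbb2, and the widest gap is at Ret, with 25.6 and 58.6. Promoter peaks are by the authors' start sites, and that of Fgfr2 lies outside Fgfr2 in RefSeq.

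In RefSeq 31 of the 39 genes had a promoter window, the 250 bases before and 50 after a start site. Their median GC content was 63.2%, against 52.8% over all genes, and 21 of 31 (67.7%) held a GC box on either strand, against 38.2% of all genes. The ETS core was in the windows of 7 receptor genes (22.6% against 16.7%), the TEAD site (ACATTCC) in 4 (12.9% against 4.47%) and the RUNX site (TGTGGT) in 4 (12.9% against 18.9%). The AP-1 site was in 3 (9.68% against 8.97%), those of Met, Ror2 and Ddr1. The forkhead site (TGTTTAC) was in 1 (3.23% against 4.05%) and the NF-kB decamer in 0 (against 0.174%). In percentage points the gap to all genes was thus widest for the GC box, while as a ratio it was wider for the TEAD site. The counts of sites other than the GC box are small.

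The receptor calls lay far from the start sites. The median distance was 65.6 kb for the 12 called peaks, 23.9 kb for all receptor peaks and 19.3 kb for all peaks of the table. Beyond 50 kb, 8 of 64 receptor peaks were called (12.5%), against 4.27% of all peaks at that distance. Within 3 kb, 1 of 47 was called (2.13% against 1.57%), although 42 of these 47 had higher means (89.4%, against 62.5% of all peaks within 3 kb). The 8 higher calls started from a median of 17.8 reads with the luciferase guide, against 46.8 for all peaks called higher, and the 4 lower calls started from a median of 202 reads.

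Genes that work with the receptors were drawn from lists of the pathway. Of 53 ligand genes 51 had peaks, 453 in all, of which 16 were higher, at 9 genes, and 1 was lower (3.75% called against 2.73% of all peaks, median difference 0.10 against 0.09). At 10 of the 51 genes (19.6%) a peak was called, against 8.58% of all genes, and these genes held 8.88 peaks each against 4.31. Il34, a ligand of Csf1r, had 4 higher peaks, the leading one going from 136 to 512 reads, 3.75-fold (adjusted p = 6.72e-10 in the authors' deposited table). Pdgfc, a ligand of Pdgfra, went from 173 to 337 reads at a peak 341 kb away (adjusted p = 0.00571 in the authors' deposited table). Pgf, the placental growth factor that binds Flt1, went from 68.3 to 170 reads (adjusted p = 0.0137 in the authors' deposited table). Fgf9, a ligand of FGF receptors, went from 68.0 to 164 reads (adjusted p = 0.0159 in the authors' deposited table). Epgn, epigen, which binds Egfr, gave the lower call, from 123 to 32.7 reads (adjusted p = 0.00370 in the authors' deposited table). That peak lies 11.9 kb upstream of Epgn, and its intron class refers to another gene. Angpt1 had 3 higher peaks, Pros1 had 2, and Igf1, Ptn and Fgf10 had 1 each. Il34 and Pdgfc were thus called while Csf1r and Pdgfra were not, and Angpt1 was called while Tek and Tie1 were not. Epgn had a lower call and Egfr had higher calls. At Pgf and Flt1 both ligand and receptor had a higher call.

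Inside the cell, adaptors and signal transducers had few calls. All 40 listed genes had peaks, 232 in all, with 3 higher and 0 lower (1.29% called against 2.73% of all peaks, median difference 0.12 against 0.09). Unadjusted p was under 0.05 at 25 of these peaks (10.8% against 11.7% of all peaks), 4 of them lower. The higher peaks were at Nck2, an adaptor of the actin cytoskeleton, from 28.0 to 94.2 reads at the leading one of 2 (adjusted p = 0.00363 in the authors' deposited table), and at Pik3r3, a regulatory subunit of PI3-kinase, from 20.5 to 74.1 reads (adjusted p = 0.0159 in the authors' deposited table).

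Feedback inhibitors had peaks at 28 of 29 genes, 311 in all, with 8 higher, at 6 genes, and 0 lower (2.57% called, near the 2.73% of all peaks, median difference 0.18 against 0.09). At an unadjusted p under 0.05, 43 of them passed (13.8% against 11.7% of all peaks), 4 of them lower, and centring on the median of all peaks gave 6 higher and 1 lower. Dusp4, a phosphatase of MAP kinases, went from 139 to 342 reads at a peak 2.09 kb from its start site (adjusted p = 2.92e-05 in the authors' deposited table). Lrig3, of the LRIG family of receptor regulators, went from 20.01 to 82.8 reads (adjusted p = 0.00997 in the authors' deposited table). Ptprj, a receptor-type phosphatase, had 3 higher peaks, the leading one going from 75.1 to 192 reads (adjusted p = 0.0120 in the authors' deposited table). Rasa1 and Dusp5 had 1 higher peak each.

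**Figure D5:**
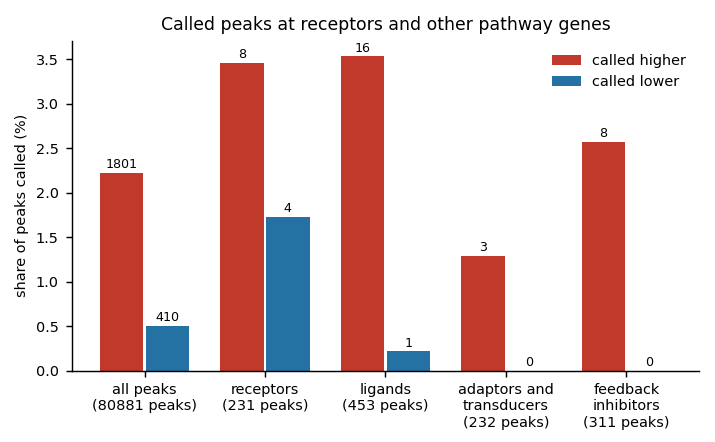
Share of peaks called higher (red) and lower (blue) by the authors' adjusted p, in percent, for all peaks, the receptors and 3 lists of genes that work with them, with the number of calls above each bar. Receptors and ligands have the taller red bars, and of the 16 higher ligand calls 4 are at Il34. The receptors have the tallest blue bar, with 4 calls of which 3 are at Kit.

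The labelled cell type was checked by open promoters. Of 11 lung epithelial markers 9 had peaks and 6 a promoter peak, Cdh1, Krt8, Krt18, Krt19, Sftpb and Foxa2, while Nkx2-1, Sftpc and Epcam had only other peaks and Sftpa1 and Napsa none. Of the 82 lung epithelial peaks 2 were called (2.44%), both higher, at Krt8 and Foxa2. Fibroblast markers, genes that mesenchymal-like tumour cells can also use, had peaks at 9 of 9 genes, with sums of 8002 and 9475 reads. Promoter peaks were at 3 of them, Col1a1 with 516 and 555 reads, Col1a2 with 59.0 and 76.0, and Acta2 with 48.2 and 63.4. Of the 73 fibroblast marker peaks 6 were called (8.22% against 2.73% of all peaks), 5 higher and 1 lower. Leukocyte markers, which matter for Kit, Csf1r and Flt3, had peaks at 11 of 12 genes and promoter peaks at 3, Cd68, S100a8 and Ly6g, but not at Ptprc or Cd3e. Their 26 peaks summed to 2166 and 1978 reads, and 1 was called (3.85%), lower. The part of such cells in the receptor values was not tested.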

How the data were processed

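ATAC-seq was done on 4 libraries, 2 per group, grouped by the sample titles. The tools deepTools, ChIPseeker, DiffBind, MACS2, Picard, Bowtie2 and FastQC appear with no version, and mm10 as the build, per the submitters' processing notes. Details of what each did, of duplicates, read ends and library normalization, and of pooling before peak calling were not given in the sources used here. A single table was deposited by the authors, with 80881 peaks and, for each, log2 group mean reads, a log2 fold, p-values and adjusted p-values, per the file headers. It names the groups dmA12 and dLuc, taken as the Malat1 and luciferase groups because the series has 1 contrast. A further 4 columns of single libraries match no sample label and were not used, so depth per library is unknown and the planned limma fit per library was not run. The test behind the p-values is not stated.

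Log2 means were turned into mean reads. The authors' fold was not printed with the peaks because it is smaller (median ratio to the difference of means 0.77 over called peaks). The gap can be wider at weak peaks. At the called Ror2 peak the difference was -2.74 and the authors' log2 fold -0.96. For centred alternatives a standard error implied by each p-value was kept and p-values were recomputed and adjusted by Benjamini-Hochberg over all peaks. A simulation of this step drew differences with these same standard errors and the same shift at every peak. It therefore cannot show whether the errors or the centring by window suit the data. Receptor peaks were all 401 bp. Coordinates are as deposited and a start may be off by 1 base, since deposited distances were matched only with 1 added, at 19 of 19 receptor genes that could be tested. Named peaks were all called receptor peaks, the leading peak of each family and up to 4 genes per direction of each pathway list; others were named by family or role, some after their values were seen. A called peak of the pathway lists that this rule would name is not reported here. The members and lists were chosen with earlier results of these data known. Python 3.11.15, pandas 2.3.3, numpy 2.4.6, scipy 1.17.1 and matplotlib 3.10.9 were used.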

Additional observations from a re-analysis of the deposited data

How the results depend on the processing

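Alternatives were the centring of differences (on the median of all peaks, along mean abundance, by chromosome or by 10 Mb window), other thresholds on the adjusted p, a fold of at least 2, peaks within 3 or 50 kb, a mean of at least 20 reads and a Benjamini-Yekutieli adjustment. Of the 12 called receptor peaks, 5 stayed called in every alternative that recomputed an adjusted p, 1 at Erbb4, 1 at Alk and 3 at Kit, and 7 lost the call in at least 1, mostly under Benjamini-Yekutieli. The Egfr peak with 15.9 and 51.0 reads lost it under every centring and that adjustment (0.0702 to 0.5001). The Ror2 peak dropped out with at least 20 reads. The cause of these changes was not tested.

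Receptor peaks called higher, 8 in the report, were 5 by window, 5 at an adjusted p under 0.01, 1 within 3 kb, 3 within 50 kb and 2 under Benjamini-Yekutieli, and those called lower, 4 in the report, were 0 within 3 kb and 1 within 50 kb. Ligand peaks called higher, 16 in the report, were 9 by chromosome, 10 by window, 5 under 0.01, 2 within 3 kb, 7 within 50 kb and 2 under Benjamini-Yekutieli, and the lower call was 0 within 3 kb. Adaptor peaks called higher, 3 in the report, were 1 under 0.01, 7 under 0.10, 0 within 3 kb and 1 under Benjamini-Yekutieli. Feedback inhibitor peaks called higher, 8 in the report, were 4 by chromosome, 5 by window, 2 under 0.01, 15 under 0.10, 3 within 3 kb, 4 within 50 kb and 1 under Benjamini-Yekutieli, and lower calls, 0 in the report, were 1 on the median, 1 along abundance and 1 under 0.10. Counts within a distance hold fewer peaks by construction. The median difference of receptor peaks, 0.22, was 0.13 on the median, 0.11 along abundance, 0.12 by chromosome, 0.12 by window, 0.26 within 3 kb and 0.23 within 50 kb. The leading Tek peak changed direction by window, at an adjusted p of 1.

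No paired analysis was possible because the columns of single libraries match no sample label, so replicate numbers could not be attached to them. For the same reason the replicate block and leaving out each library were not run. The higher receptor calls started from a median of 17.8 reads, and no depth or spread per library was used to judge them.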
